A study of Mus musculus with 19 samples.

Results

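Epidermis, the outer layer of the skin, was compared with 3 other embryonic tissues to find the transcripts that were highest or lowest in it. The series holds 19 MOE430 2.0 arrays of C57BL/6 mouse embryos at embryonic day 16. Epidermis (4 arrays) was set against urogenital sinus epithelium (UGE, 6 arrays), urogenital sinus mesenchyme (UGM, 5 arrays) and dermis (4 arrays), each of the 3 others weighted equally. Each array read a pool of tissue of several embryos, skin and urogenital sinus came from the same embryos, and pools of different groups can therefore share embryos. The embryos carried no mutation or treatment named in the labels. Back skin was held overnight at 4°C in dispase before epidermis and dermis were parted by hand, whereas UGE and UGM were parted after trypsin, so the site and the way of separation cannot be told apart. All values are log2 of the deposited intensity, an arbitrary brightness unit of the probe sets of a gene. A gene was ranked by its gain, the epidermis mean minus the highest of the 3 other group means, and by its loss, the epidermis mean minus the lowest of them. It was called epidermis-high or epidermis-low when epidermis differed from UGE, from UGM and from dermis in the same direction, each at an adjusted p under 0.01 and a change of over 2-fold in limma's moderated test. By this rule 480 of 17360 tested genes (2.76%) were epidermis-high and 466 (2.68%) were epidermis-low. Counts within the gene lists below stand beside these shares. The SE and adjusted p-values of limma given below rest on a single spread per gene, shared by all groups. Where the dermis arrays spread more widely than the other groups, the SE and adjusted p against dermis are therefore too small.

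The epidermis is a stratified epithelium that renews itself from a basal layer. Cells that leave this layer change their keratins, bind to each other through desmosomes, make the proteins and lipids of the cornified envelope and end as dead, flattened squames. In the mouse embryo this programme starts late in gestation and gives the skin its barrier before birth. Epidermis also houses cells of other origin, among them melanocytes and Langerhans cells.

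The identity of the arrays was read from defining genes. Krt5 and Krt14, the keratin pair of basal keratinocytes, lay at 13.62 to 14.07 and 13.12 to 13.74 in the 4 epidermis arrays. Krt1 and Krt10, the pair of the suprabasal layers, lay at 13.55 to 14.09 and 14.70 to 14.91, and Trp63, the master regulator of stratified epithelium, at 11.51 to 12.81. These 5 genes were all over 5 log2 units higher in epidermis than in UGM, and yet none of them was epidermis-high, because dermis or UGE came near or the dermis arrays varied. Krt10 was at 14.58, 13.47, 14.08 and 14.48 in dermis replicates 1 to 4, with an epidermis minus dermis difference of 0.66 ± 0.19 (± SE, adjusted p = 0.0097). Trp63 was at 12.21 ± 0.54 in epidermis and 11.68 ± 0.36 in UGE (± SD, n = 4 and 6). Of the other defining genes, Lor and Dsg1a were epidermis-high. Col1a1 and Twist2, genes of dermal fibroblasts, were at 9.51 to 10.75 and 7.90 to 10.29 in epidermis, 5.73 to 10.12 and 4.84 to 8.88 in UGE, 11.15 to 11.50 and 10.51 to 10.99 in UGM, and 12.15 to 12.58 and 12.42 to 12.80 in dermis. Mesenchymal transcripts were well over the lower quartile of the arrays (4.70 to 4.92) in all 4 epidermis arrays. In UGE they were uneven, with a median over 29 mesenchymal matrix genes of 9.98 and 9.97 in replicates 2 and 3 and 6.41 to 7.81 in the 4 others. Foxa1 and Upk3a, genes of UGE, were at 5.36 to 5.50 and 5.33 to 5.90 in epidermis, against 12.97 to 13.35 and 11.47 to 12.06 in UGE.

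Keratinocyte transcripts were also present in dermis, and more so in one array. Over the 480 epidermis-high genes the median log2 value was 10.05, 10.12, 10.23 and 10.41 in epidermis replicates 1 to 4. It was 7.20 to 7.55 in UGE, 6.05 to 6.21 in UGM, and 8.84, 7.40, 7.86 and 8.25 in dermis replicates 1 to 4. Dermis replicate 1 was the highest dermis array in 434 of the 480 genes, and dermis replicate 2 the lowest in 384. Over the 466 epidermis-low genes the median was 7.05, 6.90, 6.95 and 6.57 in epidermis, 8.95 to 9.26 in UGE, 9.76 to 9.93 in UGM, and 8.67, 9.20, 9.11 and 9.01 in dermis, with dermis replicate 1 the lowest of its group in 331. The part of these keratinocyte transcripts in the differences from dermis was not tested. In bulk tissue, fewer cells of a type and less RNA per cell cannot be told apart.

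**Figure D1:**
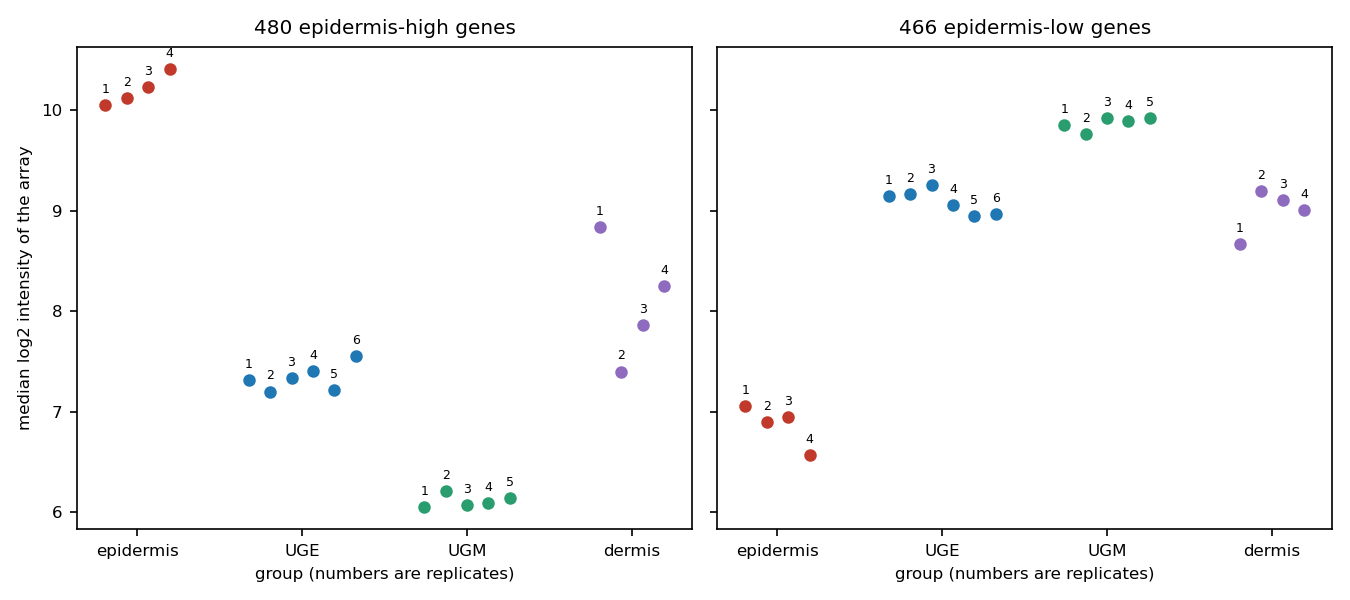
Median log2 intensity of the 480 epidermis-high genes (left) and the 466 epidermis-low genes (right) in each of the 19 arrays, with replicate numbers beside the points. The genes were chosen by these values, so the gap of epidermis is fixed by the rule; dermis replicate 1, at 8.84 and 8.67, lies nearest to epidermis within dermis on both sides.

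Dermis was the nearest tissue for most genes that marked epidermis. Among the 480 epidermis-high genes the highest other mean was that of dermis in 339 (70.6%), of UGE in 122 (25.4%) and of UGM in 19 (3.96%). Among the 466 epidermis-low genes the lowest other mean was that of UGE in 217 (46.6%), of dermis in 211 (45.3%) and of UGM in 38 (8.16%). F3, the tissue factor that starts clotting, Nipal4, a gene of congenital ichthyosis, Tgm1, the main cross-linking enzyme of the envelope, and Ivl, the precursor involucrin, had UGE nearest, with gains of 2.85, 2.59, 2.35 and 2.31. Gprin2 had the largest gain of those with UGM nearest, 2.68. Of the 339 genes with dermis nearest, 138 were over 1 log2 unit higher in dermis than in UGE and UGM as well. The gain exceeded 2 log2 units in 165 epidermis-high genes and 3 units in 30, and the loss exceeded these sizes in 91 and 11 epidermis-low genes. In 71 epidermis-high genes the means of UGE and UGM both lay under the lower quartile of the arrays (4.92), and in 20 so did that of dermis, so their differences rest on levels not shown to lie above background. The epidermis arrays lay above all 15 others in 5.97% of tested genes and below them in 6.07%, called or not. Among the called genes they did so in 467 of 480 and 445 of 466, which the rule largely fixes. In single contrasts, epidermis was higher than UGE in 6.12% of genes and lower in 8.28%, higher than UGM in 8.88% and lower in 14.6%, and higher than dermis in 5.83% and lower in 10.9%. Set against UGE and UGM alone, 732 genes were higher in epidermis than both and 890 lower than both. Of the 732, 480 were higher than dermis too, 225 were not called against dermis and 27 were lower than dermis. Near the threshold, Sult5a1 had a gain of 1.001 and was counted, while Gabrp with 0.9955 was not. At the other end Eci1 had a loss of -1.0012 and was counted, while Gpr85 with -0.998 was not.

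**Figure D2:**
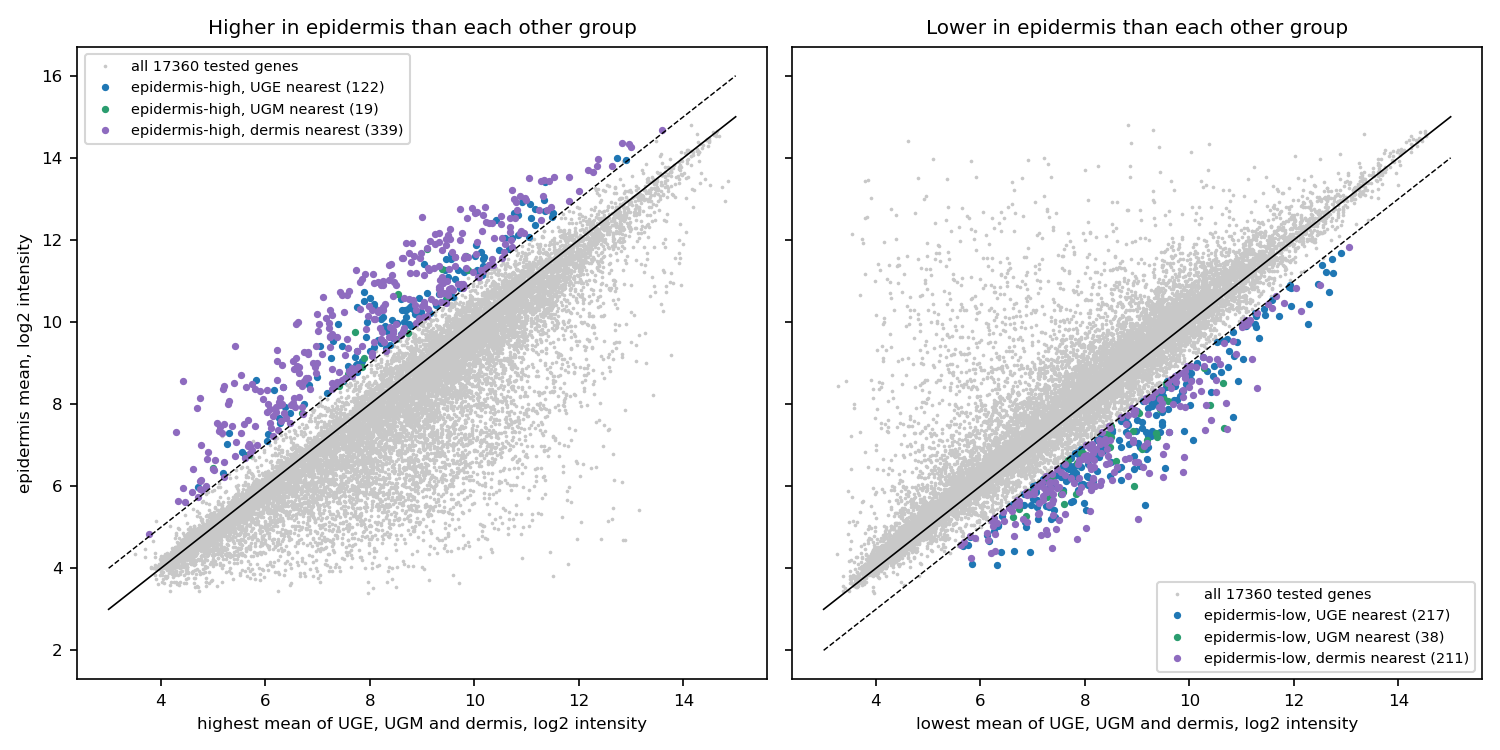
Mean log2 intensity of epidermis (vertical axis) against the highest (left) or lowest (right) mean of UGE, UGM and dermis for 17360 genes. Coloured points are the 480 epidermis-high and 466 epidermis-low genes by nearest tissue; the solid line marks equality and the dashed line a 2-fold difference.

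Over 41549 probe sets, 862 (2.07%) were epidermis-high and 715 (1.72%) epidermis-low. Against the equally weighted mean of the 3 tissues, 2035 (4.90%) were higher and 3014 (7.25%) lower. Limma's test of a change beyond 2-fold itself (treat) left 219 and 168. Of 96 named genes with a call, 53 kept it under treat, and 88 kept it in each of the 19 fits that left out 1 array. Under the methods' t-test, unpaired and of epidermis with 1 other group at a time, only 44 kept it. Among those that lost it there were Lce3f, Sprr1b, Cnfn, Elovl4, Dsc1, Dsg1a, Serpinb12, Serpinb2 and Rora. Of 44 named genes with several tested probe sets, all probe sets were called alike in 20, and in 0 was one called the other way. In Aldh1a3, Egln3, Gfra1, Grb10, Hoxa4, Hoxa9, Igfbp7, Isl1, Itga8, Lor, Pdzrn3, Pid1, Ror2 and Tyr, only 1 of several was called. Without the 4 arrays that stood apart from their groups (epidermis replicate 1, dermis replicate 1 and UGE replicates 2 and 3) the counts were 1006 and 781, and this alternative was chosen after seeing the data. Nothing in the labels says that pools of one group came from separate dissections, so p-values measure the spread between these samples, which may be technical.

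The 15 largest gains ran from 3.20 to 4.13 log2 units, all with dermis nearest, and the largest adjusted p among their contrasts was 0.00579. They were taken from epidermis-high genes whose epidermis arrays overlapped no other array, so their lack of overlap was fixed by the choice. Of these genes, 2310034C09Rik, Alox12b, Krtap13, Orm1, Prr9, Rdh9, Sdr16c6 and Serpinb3a lost the call under the methods' t-test. Aadacl2fm1, a member of the arylacetamide deacetylase-like family, was at 7.74, 8.74, 8.71 and 9.01 in epidermis replicates 1 to 4, 3.46 to 3.61 (median 3.57) in UGE, 3.30, 3.27, 3.52, 3.50 and 3.51 in UGM and 5.0, 3.87, 4.26 and 4.57 in dermis. It ranked first by gain, with a difference of 4.13 ± 0.22 from dermis (± SE, adjusted p = 2.42e-10). Since 3 of the 4 dermis arrays lay under the lower quartile, the size of this difference is not exact and may be understated. Cyp2b19, a cytochrome P450 of keratinocytes that oxidises arachidonic acid, was at 8.20, 9.35, 9.92 and 10.23 in epidermis, 3.93 to 4.28 (median 4.20) in UGE, 4.13, 4.23, 3.99, 4.09 and 4.10 in UGM and 6.43, 4.43, 4.70 and 6.14 in dermis. In both genes replicate 1 was the lowest of the 4 epidermis arrays and replicate 4 the highest.

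Alox12b, the lipoxygenase that starts the linking of ceramides to the cornified envelope, was at 10.72, 10.79, 11.02 and 11.66 in epidermis, 4.02 to 4.42 (median 4.23) in UGE, 4.28, 4.39, 4.48, 4.19 and 4.47 in UGM and 9.68, 6.01, 6.99 and 8.72 in dermis. UGE and UGM were under the lower quartile of the arrays, while dermis spread over more than 3 log2 units with replicate 1 on top. Rdh9 and Sdr16c6, short-chain dehydrogenases of retinoid metabolism, averaged 10.0 ± 0.10 and 11.94 ± 0.46 in epidermis, against 6.63 ± 1.404 and 8.69 ± 1.41 in dermis (± SD, n = 4 each). Ptk6, a tyrosine kinase of differentiating epithelia, was at 8.05, 7.62, 7.94 and 7.98 in epidermis and 6.0, 4.20, 4.11 and 4.46 in dermis, and at 3.45 to 3.90 in UGE and 3.43 to 3.69 in UGM. All its arrays outside epidermis but dermis replicate 1 lay under the lower quartile of the arrays, so the size of its difference is not exact. Orm1, an acute phase plasma protein, Teddm3, and Dynap, a membrane protein, had differences from dermis of 3.32 ± 0.50, 3.28 ± 0.34 and 3.41 ± 0.34 log2 units, the last against a dermis mean under the highest lower quartile. None of their epidermis arrays overlapped another group, as the choice of these genes required.

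Krtap13 and 2310034C09Rik, a keratin-associated protein gene and a neighbour on chromosome 16, had gains of 3.52 and 3.56 but a split dermis. 2310034C09Rik was at 12.07, 12.42, 12.31 and 13.45 in epidermis, 3.87 to 4.05 (median 3.97) in UGE, 3.86, 4.02, 3.90, 3.75 and 3.65 in UGM and 11.37, 8.70, 4.59 and 11.36 in dermis. Krtap13 was at 10.38, 11.29, 10.83 and 12.55 in epidermis and 9.77, 7.09, 4.47 and 9.64 in dermis. Dermis replicate 3 was under the lower quartile of the arrays for both, while replicates 1 and 4 came within 3 log2 units of the epidermis arrays. The call of 2310034C09Rik, adjusted p = 0.00579 against dermis in limma, was lost without epidermis replicate 2, 3 or 4 or dermis replicate 2, with gains of 3.61, 3.64, 3.26 and 3.46. Both calls were lost in fits of 2 groups alone. In the 60 bases before their starts, the 2 genes share a run of 38 bases. The run meets an end of both stretches, so it may be longer. Whether their probe sets read one or both is uncertain.

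**Figure D3:**
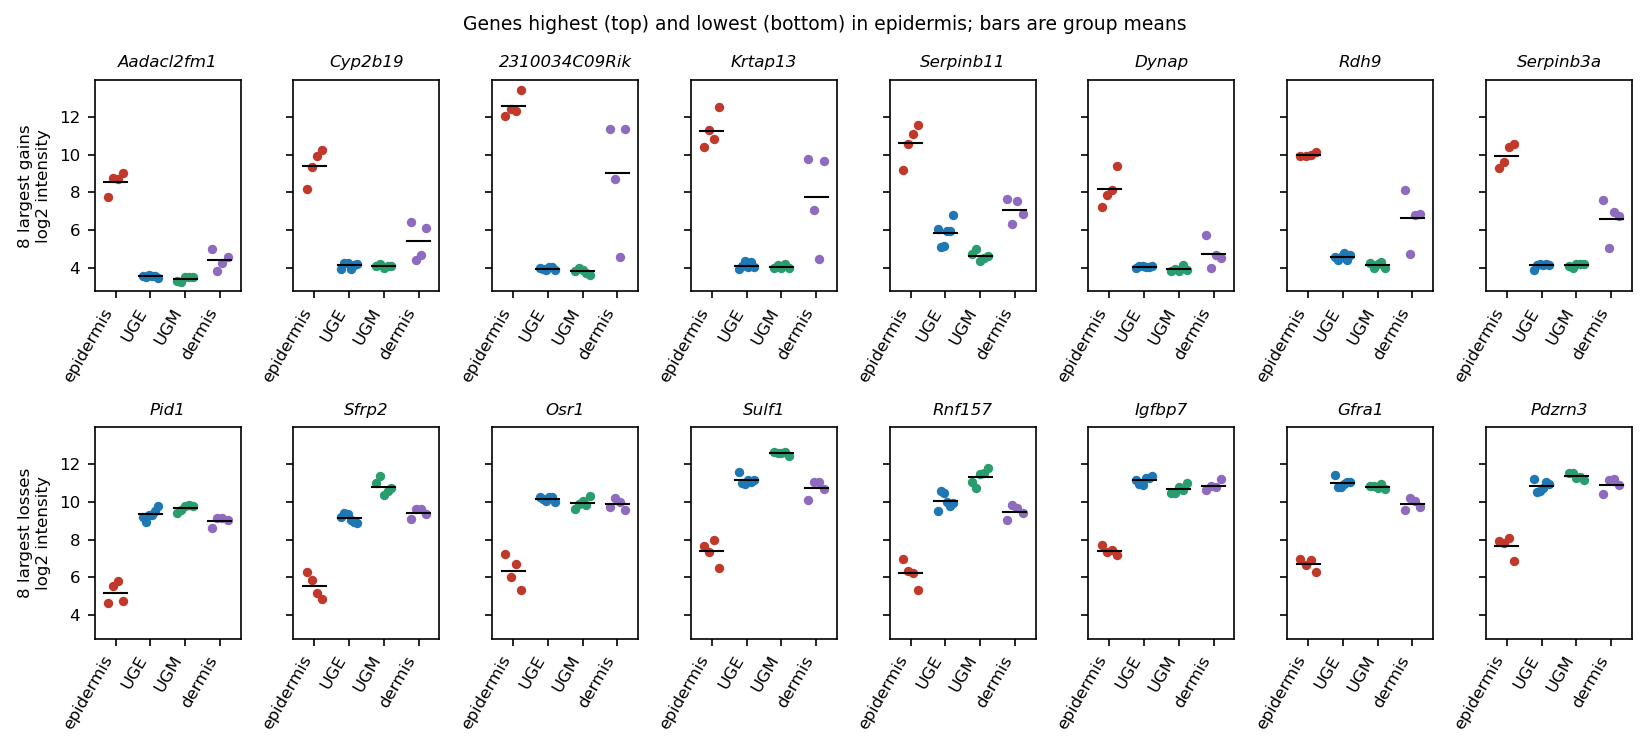
Log2 intensity in each array for the 8 genes with the largest gain (top row) and the 8 with the largest loss (bottom row), with the group mean as a bar. The genes were chosen so that epidermis stands above every other array in the top row and below in the bottom row. Dermis spreads widely in the top row.

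Cornified envelope precursors, which are cross-linked under the membrane of dying keratinocytes, were epidermis-high in 10 of 32 measured genes and epidermis-low in 0. Lce3f, a late cornified envelope protein, was at 11.62, 11.58, 11.91 and 12.56 in epidermis, 5.0 to 5.59 (median 5.12) in UGE, 5.08, 4.70, 5.04, 5.27 and 4.77 in UGM and 10.09, 7.80, 7.94 and 9.37 in dermis. Sprr1b, a small proline-rich protein, was at 10.28, 9.91, 10.24 and 10.28 in epidermis, 4.01 to 4.18 (median 4.08) in UGE, 3.91, 3.99, 4.0, 4.08 and 4.07 in UGM and 8.88, 5.52, 7.45 and 7.26 in dermis. Epidermis overlapped no other group for either gene, and the 4 arrays of Sprr1b lay within 0.4 log2 units. Cnfn and Crct1, further envelope genes, and Prr9, a proline-rich protein gene beside Lor that the list does not hold, had differences from dermis of 2.95 ± 0.38, 2.44 ± 0.36 and 3.20 ± 0.39. These SE share the spread of all groups, while the SD of the 3 genes was 0.40, 0.57 and 0.11 in epidermis. In dermis it was 1.23, 0.99 and 1.24. Lor, the most abundant envelope protein, was near the top of the scale in all skin arrays, at 14.49, 14.64, 14.70 and 14.85 in epidermis and 14.37, 12.84, 13.15 and 14.01 in dermis, against 11.50 to 12.16 in UGE and 9.07 to 9.81 in UGM. Its difference from dermis, 1.08 ± 0.25, lost the call without dermis replicate 2 (0.83) or 3 (0.93). It was also lost with the replicate number as a fixed block and in fits of 2 groups. The list's median was 7.65 to 8.51 in the epidermis arrays, 5.65 to 5.84 in UGE, 5.32 to 5.49 in UGM and 6.08 to 8.05 in dermis.

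Proteases, their inhibitors and transglutaminases, which shed squames and cross-link the envelope, held 14 epidermis-high genes of 30 and 0 epidermis-low. Spink5, an inhibitor of the kallikreins that cut desmosomes, was at 9.82, 10.97, 11.14 and 11.97 in epidermis and 9.48, 6.63, 6.34 and 8.75 in dermis, against 4.52 to 5.64 in UGE and 3.94 to 4.63 in UGM. Its lowest epidermis array, replicate 1, lay just above the highest dermis array, also replicate 1. Of the called members, 6 belong to the Serpinb family. With Serpinb11, which the list does not hold, they follow each other on chromosome 1 in the RefSeq gene order of GRCm38.p6. All 7 tested genes of this run, Serpinb5, Serpinb12, Serpinb3a, Serpinb11, Serpinb7, Serpinb2 and Serpinb8, were epidermis-high, with gains of 2.13, 2.90, 3.37, 3.51, 2.49, 3.18 and 2.54. None of the 3 tested neighbours on either side was epidermis-high. The run was found by a search for 10 consecutive tested genes with at least 4 called, cut to its called ends. The nearest tested gene before it, Vps4b, had a gain of 0.19, and the nearest after it, Cdh7, of -0.23. Bcl2, an inhibitor of apoptosis 3 tested genes before the run, was epidermis-low with a loss of -1.60.

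Within the run, the genes differed in the tissues that shared them. Serpinb12 was at 11.93, 12.06, 12.04 and 12.54 in epidermis, 3.55 to 3.84 (median 3.72) in UGE, 3.61, 3.65, 3.44, 3.58 and 3.45 in UGM and 10.58, 7.69, 8.83 and 9.87 in dermis. Serpinb2, the plasminogen activator inhibitor of differentiating keratinocytes, was at 9.86, 10.71, 11.05 and 10.998 in epidermis, 3.61 to 4.03 (median 3.77) in UGE, 3.78, 3.71, 3.50, 3.81 and 3.71 in UGM and 8.44, 5.57, 8.03 and 7.85 in dermis. Both were under the lower quartile of the arrays in UGE and UGM. Serpinb5, also called maspin, was at 12.07 to 12.68 in epidermis, and UGE shared it, with 9.24 to 10.28 in UGE, 4.77 to 5.60 in UGM and 9.46 to 11.02 in dermis. Serpinb11 was at 9.19, 10.54, 11.10 and 11.58 in epidermis, with replicate 1 lowest and replicate 4 highest, and at 5.10 to 6.79 in UGE, 4.38 to 5.01 in UGM and 6.32 to 7.63 in dermis. Serpinb3a has near copies beside it, and its probe set may read them too.

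**Figure D4:**
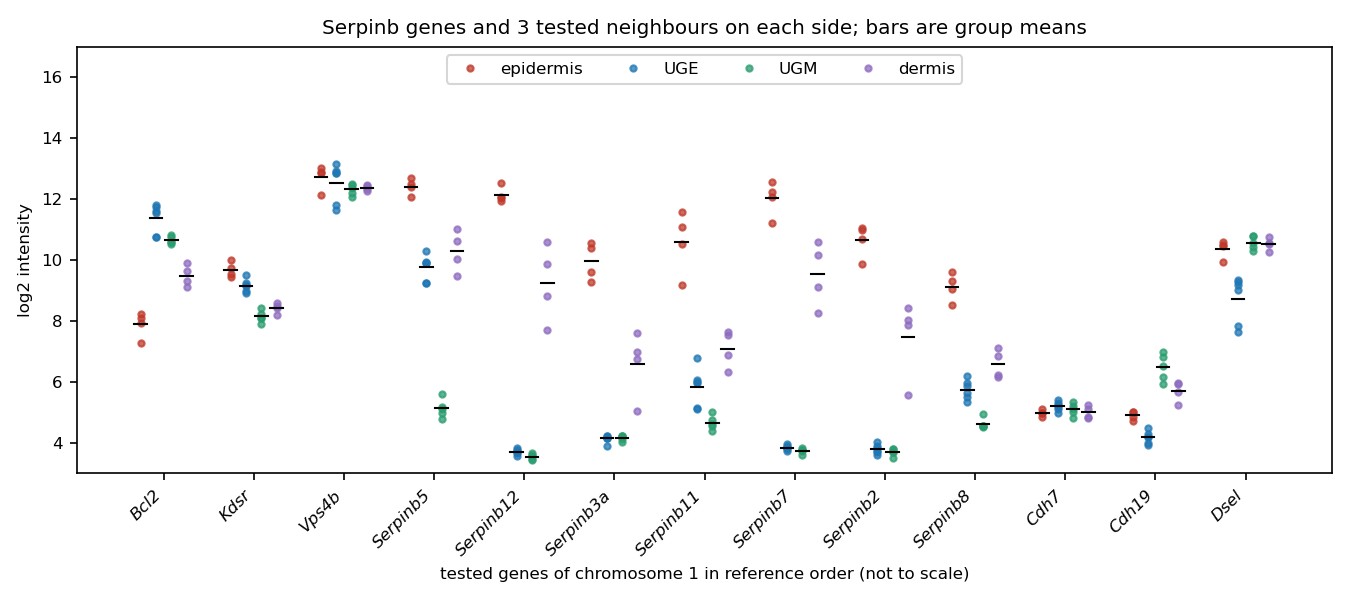
Log2 intensity in each array for the 7 consecutive Serpinb genes of chromosome 1 and 3 tested neighbours on each side, in gene order and not to scale, with group means as bars. The 4 epidermis arrays lie above all others for the 7 Serpinb genes, while Vps4b and Cdh7 beside them show gains of 0.19 and -0.23.

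Enzymes and transporters of the barrier lipids, which make and deliver the ceramides and fatty acids between squames, held 20 epidermis-high genes of 35 and 0 epidermis-low, against 2.76% and 2.68% of all tested genes. Alox12b, described above, Abca12, the ceramide carrier mutated in harlequin ichthyosis, Acer1, a ceramidase, and Pnpla1, which makes acylceramide, were among them. Elovl4, which elongates very long fatty acids, was at 11.69, 12.40, 12.48 and 12.52 in epidermis, 5.46 to 5.98 (median 5.86) in UGE, 6.91, 6.67, 6.49, 6.56 and 6.76 in UGM and 10.72, 8.33, 9.33 and 9.79 in dermis. Lipk and Lipm, lipases of the acid lipase family, differed from dermis by 3.12 ± 0.31 and 2.88 ± 0.32, while their UGE means lay under the lower quartile of the arrays. For these 3 genes no epidermis array overlapped another group. The median difference of the list was 2.12 against UGE, 2.72 against UGM, 1.49 against dermis and 2.42 against the mean of the 3 groups. Over all tested genes these medians were 0.04, 0.05, 0.0063 and 0.0041. The median difference from the mean of the 3 groups was 0.78 for envelope precursors, 1.99 for proteases and their inhibitors, 2.52 for keratins, 2.79 for desmosomes, 1.30 for transcription factors and 1.01 for melanocyte genes. From dermis alone, in the same order, it was 0.71, 2.06, 1.16, 1.895, 1.16 and 0.62.

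Keratins of the basal and spinous layers were epidermis-high in 8 of 18 genes. The called members were not the pairs that define the layers but Krt13, Krt77, Krt23, Krt6a, Krt80, Krt6b, Krt78 and Krt79. Krt77, an epidermal type II keratin, was at 11.89, 11.77, 11.64 and 12.16 in epidermis, 5.25 to 5.92 (median 5.53) in UGE, 5.16, 5.20, 5.25, 5.04 and 5.31 in UGM and 11.06, 8.10, 8.63 and 10.02 in dermis. Krt6a, a keratin of periderm, hair follicle companion layer and wounds, was at 12.15, 12.26, 12.87 and 13.37 in epidermis and already 10.46 to 11.06 in UGE, against 4.34 to 5.08 in UGM and 8.34 to 10.59 in dermis. Krt13, a keratin of internal stratified epithelia, varied between arrays, at 7.80, 7.58, 8.38 and 9.96 in epidermis, and lay at 5.36 to 6.41 in UGE, 4.60 to 4.91 in UGM and 5.26 to 6.36 in dermis. Krt6a and Krt6b are near copies, and their probe sets may read both. Simple epithelial keratins took a middle place: of 5 measured genes 0 were called on either side, while Krt7, Krt8, Krt18 and Krt19 were above dermis and below UGE. Krt7 was at 10.32, 10.22, 10.79 and 11.40 in epidermis, against 11.99 to 12.26 in UGE and 6.79 to 8.58 in dermis.

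Desmosomes, the junctions that hold keratinocytes together, gave 11 epidermis-high genes of 16, and the gap and tight junctions 4 of 20. Dsc1, the desmocollin of the upper layers, was at 12.59, 13.04, 13.26 and 13.23 in epidermis, 3.81 to 4.31 (median 4.04) in UGE, 3.88, 3.96, 3.81, 4.04 and 3.85 in UGM and 11.97, 9.28, 10.92 and 11.67 in dermis. Dsg1a and Dsg1b, desmogleins of the same layers, differed from dermis by 3.11 ± 0.40 and 3.24 ± 0.32, while their UGE means lay under the lower quartile of the arrays. Their sequences are close, so the split between them is uncertain. In the RefSeq order of chromosome 18, 4 of 5 consecutive tested genes from Dsc3 to Dsg1b were epidermis-high. The same search as for the Serpinb genes found this run. Evpl, the plaque protein envoplakin, was shared more widely, at 12.93 ± 0.08 in epidermis, 10.92 ± 0.19 in UGE, 7.05 ± 0.38 in UGM and 10.69 ± 1.04 in dermis (± SD, n = 4, 6, 5 and 4).

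Gjb2, Gjb5 and Gjb6, connexins of the epidermal gap junctions, and Cldn1, the claudin that seals the granular layer, were the 4 called junction genes. Cldn1 was at 11.57, 12.24, 12.39 and 12.71 in epidermis, 6.07 to 7.43 (median 6.25) in UGE, 6.60, 6.74, 6.56, 6.97 and 6.44 in UGM and 10.70, 9.32, 10.10 and 10.46 in dermis, so that UGE, an epithelium, lay close to UGM. Of the connexins, Gjb2 differed from dermis by 2.07 ± 0.25, Gjb5 by 2.41 ± 0.38 and Gjb6 by 2.11 ± 0.23. In the same list 6 of 20 genes were lower in epidermis than in UGE, beside 8.28% of all tested genes. Of 13 hemidesmosome and basement membrane genes, which anchor basal cells of any stratified epithelium, 1 was epidermis-high. This was Col17a1, a transmembrane collagen, at 11.01, 11.46, 10.98 and 12.06 in epidermis, 9.27 to 10.05 in UGE, 4.11 to 4.69 in UGM and 10.53, 9.996, 10.28 and 10.31 in dermis. Its call was lost without epidermis replicate 4, with a gain of 0.87.

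**Figure D5:**
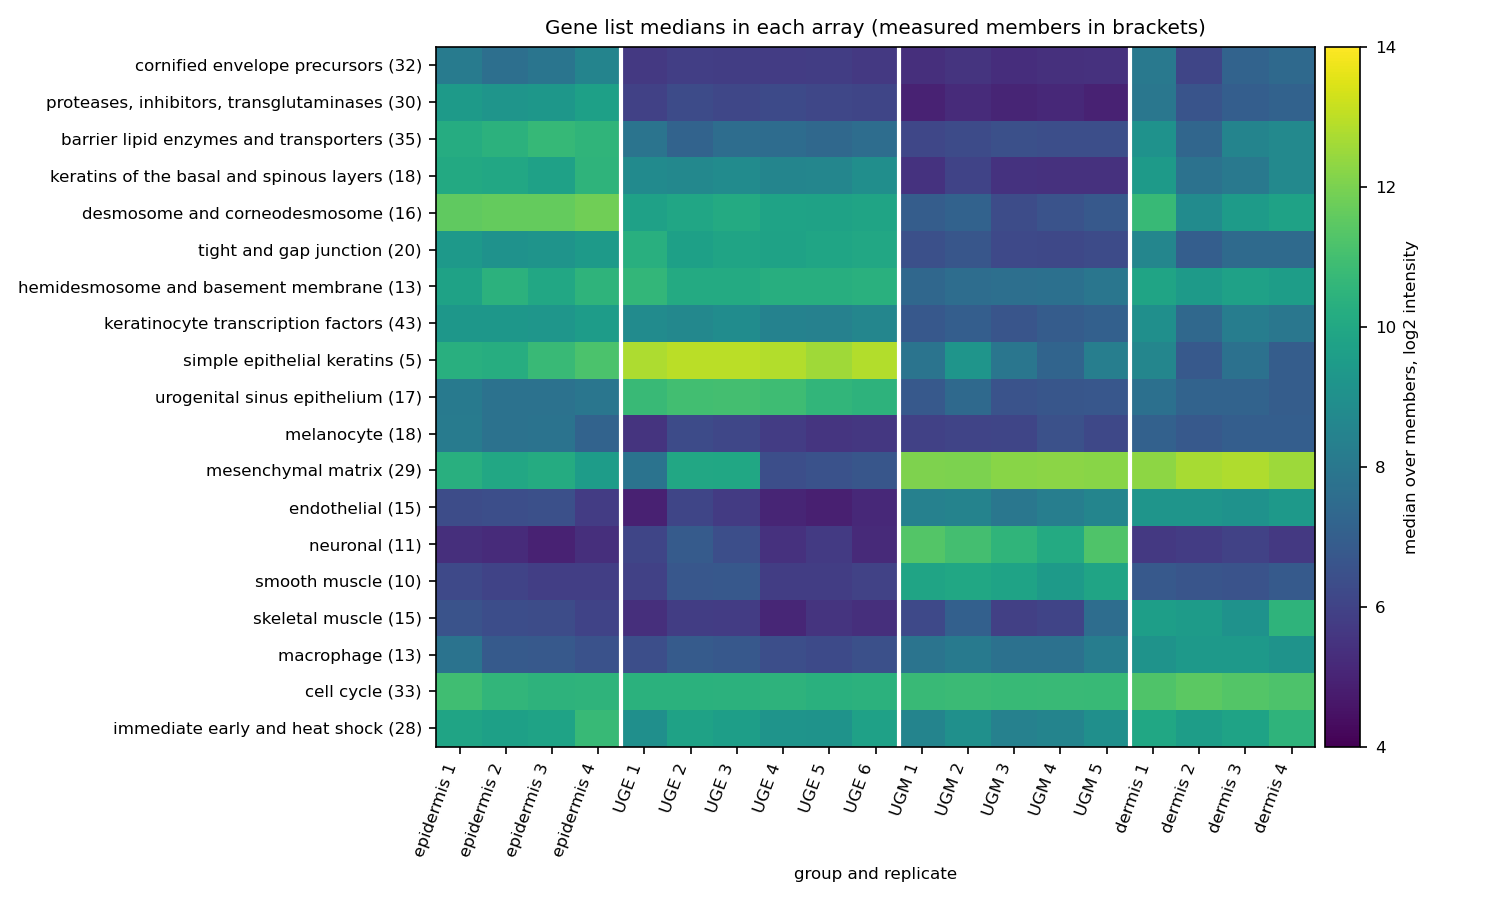
Median log2 intensity of 19 gene lists in each of the 19 arrays, with the number of measured members in brackets. Epidermis is on average brightest in the rows of envelope, protease, lipid, keratin and desmosome genes, as in the barrier lipid medians of 10.20 to 10.69 in epidermis and 7.20 to 7.84 in UGE, while the mesenchymal matrix medians are 9.52 to 10.30 in epidermis, 6.41 to 9.98 in UGE, 12.01 to 12.27 in UGM and 12.30 to 12.79 in dermis.

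Transcription factors of keratinocytes were epidermis-high in 13 of 43 measured genes and epidermis-low in 0. Rora, a nuclear receptor, had the largest gain among them and was at 10.37, 11.21, 11.47 and 11.57 in epidermis, 5.98 to 6.73 (median 6.43) in UGE, 6.76, 6.72, 6.65, 6.97 and 6.69 in UGM and 9.50, 7.35, 8.14 and 8.71 in dermis. Grhl1, a grainyhead factor that acts on desmosomal cadherins, was at 11.98, 12.47, 12.68 and 12.81 in epidermis, 10.13 to 10.82 in UGE, 4.79 to 6.36 in UGM and 10.83, 8.15, 9.85 and 10.18 in dermis. Foxn1, the nude gene, was at 8.55, 8.45, 8.32 and 8.31 in epidermis and 7.34, 4.26, 5.37 and 6.0 in dermis, against 5.94 to 7.08 in UGE and 4.03 to 4.19 in UGM. Its epidermis arrays lay within 0.3 log2 units of each other, while the dermis arrays spread from 4.26 to 7.34. Dlx5, a homeobox gene, was at 9.47, 9.27, 9.24 and 9.67 in epidermis, 6.37 to 7.06 in UGM and 6.28 to 7.86 in dermis, and UGE replicates 2 and 3 (8.54 and 8.41) stood above the 4 other UGE arrays, which lay at 5.88 to 6.61. Cebpa, a factor of keratinocyte and adipocyte differentiation, was at 11.03, 10.39, 10.44 and 10.37 in epidermis, with differences of 2.26 ± 0.20 from UGE, 4.73 ± 0.20 from UGM and 1.80 ± 0.22 from dermis. Zfp750, Tfap2e, Hopx, Ovol1, Hr, Klf4, Cebpb and Tfap2b were the other called members, with gains of 1.08 to 1.95.

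Promoter sequence was compared between the sets as a description. RefSeq promoters (250 bases before to 50 after the start, GRCm38.p6) matched 372 of the 480 epidermis-high genes, 357 of the 466 epidermis-low genes and 13726 of the 17360 tested genes. The letters TATAAA began between 45 and 20 bases before the start, on the strand of the gene, in 22 epidermis-high promoters (5.91%), 10 epidermis-low promoters (2.80%) and 2.39% of all tested. TGANTCA, the letters of the AP-1 site, stood on either strand of the promoter in 11.6%, 3.36% and 5.97%. GGGCGG, the GC box, stood on either strand in 50.3%, 68.6% and 55.9%. The median number of CpG was 10.5 in epidermis-high, 20.0 in epidermis-low and 18 in all tested promoters. To show this contrast, bases -60 to -1 are given for epidermis-high genes with TATAAA in that window, for Serpinb12 with TGANTCA, for the neighbours Krtap13 and 2310034C09Rik with their shared run, and for 3 of the most reduced genes with GGGCGG (or CCGCCC, its other strand). Capitals mark these letters wherever they stand. The genes shown were chosen for these letters, and other named genes ran against the contrast. The epidermis-low gene Tgfb2 has TATAAA at -31. A GC box lies in bases -60 to -1 of epidermis-high Alox12b, Cldn1, Cnfn, Egln3, Elovl4, Hspa1a, Hspa1b, Hspb1 and Wnt3. It lies there in epidermis-low Pdzrn3 and Grb10 too, but not in Sfrp2, Rnf157, Nr2f1, Gata2, Gfra1, Itga8 or Plce1, also epidermis-low. The shared run of the 2 neighbours spans their TATAAA. It stands at -27 in 2310034C09Rik, but at -49 in Krtap13, outside the window of the count.
Lor (chr3:92083143-92083202, -): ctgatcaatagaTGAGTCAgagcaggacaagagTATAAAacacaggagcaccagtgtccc
Prr9 (chr3:92123948-92124007, -): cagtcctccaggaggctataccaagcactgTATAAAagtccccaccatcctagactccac
Sprr1b (chr3:92438780-92438839, -): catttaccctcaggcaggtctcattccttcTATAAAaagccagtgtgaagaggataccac
Serpinb2 (chr1:107511363-107511422, +): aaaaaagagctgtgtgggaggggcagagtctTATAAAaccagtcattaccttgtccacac
Aqp3 (chr4:41098184-41098243, -): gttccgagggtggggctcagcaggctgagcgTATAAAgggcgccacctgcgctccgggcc
Cebpa (chr7:35119233-35119292, +): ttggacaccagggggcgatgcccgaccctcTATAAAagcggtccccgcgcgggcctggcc
Serpinb12 (chr1:106934389-106934448, +): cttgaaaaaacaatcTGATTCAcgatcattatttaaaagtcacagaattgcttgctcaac
2310034C09Rik (chr16:88758787-88758846, +): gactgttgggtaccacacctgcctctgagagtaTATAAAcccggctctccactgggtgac
Krtap13 (chr16:88751629-88751688, -): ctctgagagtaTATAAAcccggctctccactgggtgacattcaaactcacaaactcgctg
Pid1 (chr1:84284646-84284705, -): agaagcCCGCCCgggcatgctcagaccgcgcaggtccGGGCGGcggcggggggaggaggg
Ror2 (chr13:53286125-53286184, -): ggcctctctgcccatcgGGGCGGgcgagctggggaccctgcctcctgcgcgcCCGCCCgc
Igfbp7 (chr5:77408046-77408105, -): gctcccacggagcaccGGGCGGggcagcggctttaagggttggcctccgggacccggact
Lor, Prr9 and Sprr1b lie on chromosome 3, where 39 of 859 tested genes (4.54%) were epidermis-high. In the order of that chromosome, 4 of 10 consecutive tested genes from Lor to Sprr3 were epidermis-high, as were 4 of 10 from Lce3f to Them5. Both came from the search described for the Serpinb genes, which requires at least 4 in 10. That search also found 4 of 6 from Elovl1 to Cfap57 on chromosome 4. Its epidermis-low runs were Stmn2 to Pag1, Evx1 to Chn2 and Maged1 to Zc4h2. A match of letters is not a site in use.

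Epidermis-high genes were also found among secreted defence and growth factors and among channels. Defb1, a beta-defensin, was at 11.26, 11.61, 11.79 and 11.73 in epidermis, 6.48 to 7.69 (median 7.15) in UGE, 4.68, 4.68, 4.49, 4.49 and 4.64 in UGM and 9.88, 7.86, 8.72 and 8.90 in dermis. Il1f5, an antagonist of the interleukin 36 receptor now named Il36rn, was at 10.90 ± 0.30 in epidermis, 6.20 ± 0.15 in UGE, 6.09 ± 0.06 in UGM and 8.26 ± 0.71 in dermis (± SD, n = 4, 6, 5 and 4). Stfa3, a cysteine protease inhibitor with near copies, was the other called gene among the 21 of this list, and its difference from dermis of 1.74 ± 0.41 lost the call without dermis replicate 2 (1.37) or 3 (1.43) and in fits of 2 groups. Ereg, an EGF receptor ligand, was the only 1 of 12 EGF family genes called, at 7.97, 8.72, 8.21 and 9.92 in epidermis, 4.68 to 6.08 (median 5.18) in UGE, 4.07, 4.33, 4.35, 4.49 and 4.28 in UGM and 6.53, 4.47, 5.51 and 5.58 in dermis. In Defb1 and Ereg no epidermis array overlapped another group. Of 13 channel and pump genes 3 were called: Aqp3, a water and glycerol channel, Clca2, a regulator of chloride channels, and Scnn1a, a subunit of the epithelial sodium channel. Aqp3 was at 10.06, 9.97, 10.21 and 10.24 in epidermis, 8.0 to 8.41 (median 8.26) in UGE, 6.25, 6.16, 6.86, 6.60 and 6.49 in UGM and 8.79, 7.12, 7.99 and 8.19 in dermis.

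Pigment cell genes, which mark melanocytes that enter the epidermis from the neural crest, were epidermis-high in 7 of 18 and epidermis-low in 0. Of all tested genes, 2.76% and 2.68% were. Dct, an enzyme of melanin synthesis, was at 11.51, 11.42, 11.10 and 10.32 in epidermis, 4.95 to 6.85 (median 5.73) in UGE, 5.54, 6.01, 5.96, 6.22 and 5.91 in UGM and 9.69, 9.15, 9.35 and 9.34 in dermis. Pmel, the fibril protein of melanosomes, was at 11.78, 11.23, 11.01 and 10.005 in epidermis and 10.29, 9.17, 9.01 and 9.41 in dermis. Tyr, the first enzyme of melanin synthesis, was at 8.15, 8.15, 7.85 and 6.95 in epidermis and 6.52, 6.16, 6.50 and 6.22 in dermis, against 4.31 to 4.51 in UGE and 4.51 to 4.76 in UGM. In all 3 genes epidermis replicate 4 was the lowest of its group. It still lay above every array of the other groups for Dct and Tyr, but below dermis replicate 1 for Pmel. Rab38, a trafficking GTPase of melanosomes that other cells also use, was at 12.70, 12.62, 12.75 and 12.80 in epidermis, with no such drop in replicate 4. Tyrp1 was near the lower quartile of the arrays in epidermis, at 4.60 to 4.79. Sox10, a factor of the whole crest lineage, was at 8.22 to 9.55 in epidermis, 7.09 to 7.74 in UGE, 9.43 to 9.89 in UGM and 9.29 to 9.55 in dermis, and epidermis was called above UGE alone. Mlana and Mc1r, a melanosome protein and the melanocortin receptor, and Rab27a were the other called members. Not all members ran this way. Of the 18, 2 were below dermis, a share like that of all tested genes (10.9%). Kit, the receptor that guides melanoblasts, differed from dermis by -1.43, and Ednrb, the endothelin receptor of melanoblasts, by -1.77 from dermis and -2.42 from UGM. Atoh1 and Krt20, genes of Merkel cells, lay at 6.24 to 6.86 and 4.75 to 5.10 in epidermis and 5.92 to 6.84 and 4.74 to 5.54 in dermis. Cd207, the langerin of Langerhans cells, lay at 4.92 to 5.17 in epidermis, and of 10 Langerhans and T cell genes 0 were epidermis-high or epidermis-low.

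On the side of loss, the 15 largest ran from -2.91 to -3.82, with dermis lowest of the others in 9, UGE in 4 and UGM in 2, and the largest adjusted p among their contrasts was 1.16e-07. Pid1, an inhibitor of insulin signalling, was at 4.63, 5.57, 5.80 and 4.77 in epidermis, 8.93 to 9.77 (median 9.30) in UGE, 9.41, 9.58, 9.78, 9.86 and 9.77 in UGM and 8.64, 9.16, 9.17 and 9.07 in dermis. By its brightest probe set, the loss of Pid1 was the largest of all tested genes, -3.82 ± 0.23 against dermis. Of its 3 tested probe sets, 1 was epidermis-low. Epidermis replicates 1 and 4 lay under the highest lower quartile of the arrays (4.92), so the size of this loss is not exact. Sfrp2, a secreted Wnt antagonist, was at 6.29, 5.85, 5.20 and 4.84 in epidermis, 8.90 to 9.43 (median 9.13) in UGE, 10.99, 11.35, 10.36, 10.58 and 10.72 in UGM and 9.07, 9.63, 9.63 and 9.34 in dermis. Ror2, a receptor of Wnt5a, was at 7.30, 6.14, 6.72 and 5.57 in epidermis, 9.25 to 9.83 (median 9.55) in UGE, 9.47, 9.40, 9.82, 9.73 and 10.01 in UGM and 9.34, 9.94, 9.74 and 9.71 in dermis. In these 3 genes all epidermis arrays lay below all others, which was fixed because the 15 were taken from genes without overlap. For Sfrp2 and Ror2, replicate 1 was the highest epidermis array and replicate 4 the lowest.

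Wnt5a itself was epidermis-low, at 6.55, 5.71, 6.72 and 5.15 in epidermis, 7.01 to 8.70 in UGE, 10.53 to 10.78 in UGM and 9.05 to 10.11 in dermis. Wnt3 was the only epidermis-high gene of 19 Wnt ligands, with a difference of 1.04 ± 0.17 from a dermis mean near the lower quartile that lost the call without epidermis replicate 1 (0.99), 2 (0.96) or 4 (0.94) or dermis replicate 2 (0.93), and with 50 added before log2 (0.46). Sulf1, which trims heparan sulfate outside the cell, and Igfbp7, an IGF binding protein of the matrix, differed from dermis by -3.33 ± 0.25 and -3.43 ± 0.16. Gfra1, a co-receptor for GDNF, was at 6.96, 6.68, 6.93 and 6.27 in epidermis, 10.80 to 11.43 (median 10.99) in UGE, 10.82, 10.82, 10.76, 10.95 and 10.69 in UGM and 9.55, 10.23, 10.07 and 9.75 in dermis. Itga8, an integrin chain, Matn2, a matrix filament protein, Plce1, a phospholipase, Sorcs2, a sorting receptor of neurons, and the ubiquitin ligases Rnf157 and Pdzrn3 had losses of -2.94, -2.91, -3.03, -2.93, -3.27 and -3.16. Only 1 of several tested probe sets was called for Gfra1, Igfbp7, Itga8, Pdzrn3 and Ror2, and 2 of 5 for Rnf157. For Matn2 it was 2 of 2. Fn1, the matrix protein fibronectin, was the only called gene of 29 mesenchymal matrix genes. It was at 10.30, 9.98, 10.03 and 9.52 in epidermis, 12.08 to 12.45 (median 12.28) in UGE, 12.77, 12.78, 12.67, 12.69 and 12.45 in UGM and 12.55, 12.997, 13.11 and 12.93 in dermis, with UGE near the mesenchymes. Of the 29 genes, 21 were below dermis (10.9% of all tested genes were) and 17 above UGE (6.12% were).

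Among the 15 largest losses were also 3 transcription factors, Osr1, Nr2f1 and Gata2. Osr1, a factor of the intermediate mesoderm, was at 7.25, 6.03, 6.74 and 5.33 in epidermis, 9.97 to 10.27 (median 10.21) in UGE, 9.62, 9.89, 10.04, 9.82 and 10.30 in UGM and 9.73, 10.20, 10.01 and 9.55 in dermis. Nr2f1, an orphan nuclear receptor, averaged 4.71 ± 0.33 in epidermis, 9.68 ± 0.33 in UGE, 12.42 ± 0.29 in UGM and 7.84 ± 0.46 in dermis (± SD, n = 4, 6, 5 and 4). Gata2 had a loss of -2.92, and it was the 1 epidermis-low gene of 17 chosen as genes of UGE, in which Trim29 was the 1 epidermis-high gene. Of 33 measured Hox genes, which set position along the body, 2 were epidermis-low and 1 epidermis-high, with a median difference from the mean of the 3 groups of -0.21. Hoxa9 was at 6.55, 6.37, 7.13 and 5.78 in epidermis, 11.81 to 12.71 in UGE, 10.78 to 11.13 in UGM and 8.56 to 9.50 in dermis. Hoxa4 was at 7.35, 7.11, 6.72 and 6.70 in epidermis, 4.73 to 5.08 in UGE, 4.57 to 4.77 in UGM and 5.35 to 6.34 in dermis, and its call was lost with 50 added before log2 (0.77). Hoxd9 was the other epidermis-low member, with a loss of -2.22.

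The retinoid, Notch, hair and imprinted lists held few calls in number, with epidermis-low shares of 11.1%, 5.88%, 7.41% and 17.6% in that order. Epidermis-high and epidermis-low genes numbered 1 and 2 of 18 in the retinoid list, 1 and 1 of 17 in Notch, 0 and 2 of 27 in hair, and 1 and 3 of 17 in imprinted genes, beside 2.76% and 2.68% of all tested genes. Aldh1a2 and Aldh1a3, which make retinoic acid, were at 5.04 to 5.27 and 4.58 to 5.11 in epidermis, 9.52 to 10.19 and 8.84 to 10.75 in UGE, 12.48 to 12.63 and 8.65 to 9.66 in UGM, and 6.27 to 6.59 and 6.74 to 7.49 in dermis. Rdh12, a retinal reductase, was the epidermis-high member of the same list of 18, with 11.68 ± 0.14 in epidermis and 8.99 ± 1.20 in dermis (± SD, n = 4 each). Of 17 Notch pathway genes Jag1, a ligand, was epidermis-high with a gain of 1.27, and Hey1, a target, epidermis-low with a loss of -1.47. Among 27 hair placode and germ genes 2 were epidermis-low and 0 epidermis-high: Trps1, a GATA-type repressor, and Tgfb2, whose loss of -1.12 missed the call without epidermis replicate 1 (-0.99), without the 4 arrays that stood apart (-0.9956) and with 50 added before log2 (-0.97). Of 17 imprinted growth genes, Ndn, Nnat and Grb10 were epidermis-low and Slc38a4, an amino acid transporter, epidermis-high. In the contrast with dermis alone, 10 of the 17 were lower in epidermis, beside 10.9% of all tested genes. Ndn was at 12.07, 10.51, 10.61 and 9.70 and Nnat at 7.52, 5.92, 5.85 and 4.97 in epidermis, with replicate 1 well above the 3 others in both, and the call of Nnat was lost in fits of 2 groups. The call of Slc38a4, with a difference from dermis of 1.08 ± 0.28, was lost with the replicate number as a fixed block. It was also lost without epidermis replicate 2 (1.03), 3 (0.9986) or 4 (0.96) or dermis replicate 1 (1.08) or 2 (0.96).

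Genes that respond to handling were measured too, since the skin alone was kept overnight in the cold. Of 28 immediate early and heat shock genes 4 were epidermis-high and 0 epidermis-low. Hspb1, a small heat shock protein that keratinocytes also make as they differentiate, was at 14.48, 14.33, 14.36 and 14.28 in epidermis, 12.53 to 12.88 (median 12.71) in UGE, 8.48, 9.26, 8.68, 8.50 and 9.46 in UGM and 13.86, 11.61, 12.75 and 13.06 in dermis. Hspa1a and Hspa1b, near copies of the inducible Hsp70, differed from dermis by 2.40 ± 0.36 and 1.39 ± 0.27. Zfp36, which destabilises mRNA, passed narrowly with 1.09 ± 0.31 (adjusted p = 0.00918 in limma). It lost the call with the fixed replicate block, in fits of 2 groups and in 15 of the 19 fits without 1 array. In 10 of these 15, each without a UGE or UGM array, the difference stayed at 1.09. In the 5 others it was 1.13 and 0.74 without epidermis replicates 3 and 4, and 1.12, 0.92 and 0.99 without dermis replicates 1, 2 and 3. The list's median was 9.82, 9.69, 9.82 and 10.76 in epidermis replicates 1 to 4, 8.98 to 9.76 in UGE, 8.41 to 9.01 in UGM, and 9.94, 9.56, 9.81 and 10.50 in dermis replicates 1 to 4. Of 14 genes of the cold and low oxygen response, Egln3, an oxygen sensor, and Ndrg1, a hypoxia-induced gene also tied to differentiation, were epidermis-high, with gains of 1.70 and 1.21. The part of handling in these differences was not tested.

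Some lists held no epidermis-high or epidermis-low gene. Over all tested genes 2.76% and 2.68% were so called, so lists of this size can hold none. Among 33 cell cycle genes 0 were called on either side. Above UGE, UGM and dermis lay 1, 0 and 0, beside 6.12%, 8.88% and 5.83% of all tested genes. Below UGE, UGM and dermis lay 1, 0 and 3, beside 8.28%, 14.6% and 10.9% of all tested genes. The endothelial (15 genes), smooth muscle (10), skeletal muscle (15), macrophage (13), erythroid (10) and Schwann cell (8) lists also had 0 on either side. The endothelial, skeletal muscle and macrophage lists were lower in epidermis than in dermis (15 of 15, 14 of 15 and 12 of 13 genes called). Over all tested genes 10.9% were. Against UGE, 6 of 15 skeletal muscle genes were higher in epidermis, beside 6.12% of all tested genes. Pecam1, a junction protein of vessels, was at 4.90 to 5.28 in epidermis and 6.12 to 6.74 in dermis, Adgre1, the macrophage marker F4/80, at 7.01 to 8.01 in epidermis and 9.06 to 9.40 in dermis, and Myog, a factor of muscle, at 5.86 to 7.32 in epidermis and 9.97 to 10.49 in dermis. Of 11 neuronal genes, Stmn2 and Uchl1 were epidermis-low, with losses of -1.80 and -1.22, and Isl1 was the 1 epidermis-low gene of 14 on the Merkel cell list, at 4.45 to 5.65 in epidermis and 12.29 to 12.94 in UGM. The calls of Uchl1, Isl1 and Aldh1a2 were lost with 50 added before log2 (-0.63, -0.88 and -0.69).

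The 4 epidermis arrays were not alike. Replicates 2, 3 and 4 correlated at r = 0.991 to 0.995 over all tested probe sets, and replicate 1 with them at 0.971 to 0.977. Replicate 1 was the lowest of the 4 in 236 of the 480 epidermis-high genes and replicate 4 the highest in 297. Replicate 1 was also the only array of the series with a strong signal of Adipoq, the hormone adiponectin of fat cells, at 9.63 against 3.63 to 3.73 in the other epidermis arrays and 3.38 to 4.68 in the 15 arrays of the other groups. Car3, a carbonic anhydrase abundant in fat and muscle, was at 12.94 in replicate 1, with 6.43 the highest of the other epidermis arrays and 10.21 the highest of the other groups. Gpd1 and Mrap, further genes of fat cells, were 1.64 and 1.31 above the next highest of the 18 other arrays. Fabp4, a fatty acid binding protein of fat cells and capillaries, was at 9.31, 7.18, 7.06 and 6.73 in epidermis replicates 1 to 4, though dermis was higher at 10.51 to 11.35. The median of 7 adipocyte genes was 9.31 in epidermis replicate 1 and 6.73 to 7.18 in the 3 others, against 5.74 to 6.66 in UGE, 5.37 to 6.22 in UGM and 8.34 to 8.86 in dermis. Their values were known when these genes were chosen.

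Replicate 4 stood out in another group of genes. It exceeded each of the 18 other arrays by over 1 log2 unit in 32 genes, against 5 in replicate 1 and 0 in replicates 2 and 3. Among them were Lce1a1, a late cornified envelope gene, at 8.22 with 5.93 the next highest, Wfdc5, an epidermal protease inhibitor, at 9.37 with 7.73 the next, Saa1, an acute phase protein, at 8.01 with 6.25 the next, and Fosb, an immediate early factor, at 8.14 with 5.51 the next. Without replicate 1 the count of epidermis-high probe sets was 973 and that of epidermis-low 755, and without replicate 4 they were 770 and 648, beside 862 and 715 with all arrays. The part of fat cell RNA in these counts was not tested.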

How the data were processed

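RNA of pooled E16 tissue was labelled in 2 cycles and read on 1-colour MOE430 2.0 arrays. The authors deposited linear intensity values that were already normalized. The submitters' processing notes name GCOS 1.4, and which algorithm made the table is unknown. Detection calls were not used. Of 45101 probe sets, 64 controls and those with no value over 20 were left out, which left 41549. Values were taken to log2 with no further scaling and fitted with limma 3.58.1 in R 4.3.3, all 19 arrays in 1 model. Adjusted p-values are Benjamini-Hochberg over all tested probe sets. Gene symbols came from the platform annotation, updated to RefSeq GRCm38.p6, and a gene was read by its brightest tested probe set (34945 probe sets had 1 symbol, 932 several, 9160 none). The fit was tested on simulated data. Named genes were the 15 largest gains and the 15 largest losses among called genes without overlap between epidermis and other arrays. The called genes leading each list and the defining markers were named too. Members and lists were chosen with earlier results of these data known. The main fit was unpaired, with no block for replicate numbers. Replicates 1 to 4 of epidermis and dermis deviated together only weakly (r = 0.343, 0.108, 0.264 and 0.168). Epidermis replicate 2 correlated more with another dermis array (0.299). Replicate numbers were therefore used as pairs in the blocked alternatives alone. Alternatives in scaling, filter, threshold, block and samples were run. The number of arrays limits the precision.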

Additional observations from a re-analysis of the deposited data

Results flagged for a closer look

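In 41 of 616 groups of arrays, for 118 genes and 36 lists and sets named in the text, 1 array lay far from the others of its group by Dixon's gap test, which chance gives in about 1 in 20 groups. The log2 value of the array set apart is given with each. Epidermis replicate 1 stood apart for Adipoq (9.63), Cd207 (4.92), Cebpa (11.03), Elovl4 (11.69) and Hspa1b (13.49). Epidermis replicate 2 stood apart for Sprr1b (9.91). Epidermis replicate 3 stood apart for Krt1 (13.55) and Wnt3 (5.05). Epidermis replicate 4 stood apart for the median of the list immediate early and heat shock (10.76) and the median of the list endothelial (5.77). UGE replicate 1 stood apart for Gfra1 (11.43), Grb10 (13.18), Lor (11.50), Serpinb3a (3.90), Sulf1 (11.57) and Uchl1 (10.09). UGE replicate 2 stood apart for Cnfn (5.50). UGE replicate 3 stood apart for Foxn1 (7.08). UGE replicate 5 stood apart for Elovl4 (5.46) and Ndrg1 (10.65). UGE replicate 6 stood apart for Cebpa (8.70), Cldn1 (7.43), Hspa1b (12.46), Krt13 (6.41), Krt7 (12.26) and Nnat (7.77). UGM replicate 2 stood apart for the median of the list keratins of the basal and spinous layers (6.02), the median of the list urogenital sinus epithelium (7.43), Clca2 (5.18), Krt5 (8.78) and Nr2f1 (11.93). UGM replicate 5 stood apart for the median of the list erythroid (7.64), Gjb2 (6.71), Hey1 (9.19), Hspa1a (8.89), Hspa1b (9.90) and Ndrg1 (9.51). Dermis replicate 1 stood apart for the median of the list imprinted growth genes (12.44) and Prr9 (8.84). Dermis replicate 4 stood apart for the median of the list Hox genes (6.30) and Fabp4 (11.35).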

How the results depend on the processing

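No named gene's difference changed sign under the alternatives run. Against 862 epidermis-high and 715 epidermis-low probe sets, limma's treat gave 219 and 168, dermis left out 1447 and 1487, and the mean of the 3 tissues in place of each 2035 and 3014. The methods' t-test gave 389 epidermis-high and 504 epidermis-low, and 50 added before log2 gave 425 epidermis-low. Counted once per gene the numbers were 480 and 466 by the brightest probe set, and 437 and 290 by the mean of probe sets. For the mean of the 3 tissues, treat gave 876 higher and 1036 lower, the brightest probe set per gene 1065 and 1817, the mean of probe sets 956 and 1325, and 50 added gave 1929 lower. Leaving out 1 array gave 770 to 973 epidermis-high and 648 to 755 epidermis-low, and 1881 to 2354 higher and 2860 to 3085 lower than the mean. With the replicate number as a fixed block over all 19 arrays the counts were 832 and 697, and as a random block within site 867 and 721. The fixed block also ties UGE and UGM arrays to skin arrays by number. Epidermis and UGE replicates 1 to 4 of the same number deviated with r = -0.560, -0.281, -0.334 and 0.259. This block is therefore not a check of true pairs. Quantile normalization gave 890 and 673. Of 96 named calls, 44 were kept under the methods' t-test, 93 were kept with the fixed block, 96 with the random block and 89 with 50 added. The cause of these shifts was not tested. Intensity near the lower quartile of the arrays limits what can be said of 71 epidermis-high and 26 epidermis-low genes.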
